A study of Mus musculus with 16 samples.

Results

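Interferon-stimulated genes are the transcripts that cells make in answer to interferons. They were followed here through 39 named genes, of 23224 genes in the count table, in pancreatic neuroendocrine tumours of RIP1Tag2 mice. The 39 were taken by symbol, all 39 were present, and all 39 were among the 16084 genes with enough counts to test. The list was split into 29 genes that are best known from the response to type I interferons (the type I arm) and 10 best known from the response to interferon gamma (the gamma arm), although many genes answer to both. RIP1Tag2 mice express the SV40 T antigens from the rat insulin promoter, so that the tumours arise from beta cells. The samples of 3 groups were profiled, all of that genotype and all from end-stage mice of 14 to 16 weeks. The B6 MK801 group held 5 libraries from C57Bl/6 (B6) mice given MK801, a potent blocker of the NMDA-type glutamate receptor, by intraperitoneal injection at 1 mg/kg once a day for 3 days. The C3H control group held 4 libraries from the C3HeB/Fe (C3H) background, and the B6 control group held 7 libraries from C57Bl/6 mice. Control mice had either no treatment or saline for 3 days, and the labels do not say which library had which, so injection and MK801 cannot be told apart. Nothing in the labels gives each library a mouse of its own, and p-values measure the spread between these libraries.

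Type I interferons signal through the receptor of Ifnar1 and Ifnar2 to a complex that holds Stat2 and Irf9 and binds the interferon-stimulated response element (ISRE). Interferon gamma signals through Ifngr1 and Ifngr2 and acts at the gamma-activated site (GAS), inducing Irf1. The induced genes encode sensors and blockers of viral RNA, GTPases that attack microbes inside cells, chemokines that draw T cells, and proteasome subunits for antigen presentation, and in tumours they are made by cancer cells as well as by immune and stromal cells.

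The promoters of 6 members from both arms are shown because they hold the DNA words through which these genes are known to be switched on. Each line gives the 160 bases just before the transcription start, 5′ to 3′ on the gene's own strand, from RefSeq on GRCm38.p6, with matches to motif cores in capitals. The ISRE core was taken as GAAA, 2 bases of any kind and GAAA, searched on both strands (TTTC, 2 bases and TTTC in reverse), and the GAS core as TTC, 3 bases of any kind and GAA, which reads the same in reverse. GRCm38.p6 is a later build than the mm9 named for the count files.
Isg15 (chr4:156200819-156200978, minus strand): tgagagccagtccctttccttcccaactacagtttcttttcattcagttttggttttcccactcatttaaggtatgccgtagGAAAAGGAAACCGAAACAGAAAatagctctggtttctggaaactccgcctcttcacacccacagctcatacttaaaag
Ifit1 (chr19:34640729-34640888, plus strand): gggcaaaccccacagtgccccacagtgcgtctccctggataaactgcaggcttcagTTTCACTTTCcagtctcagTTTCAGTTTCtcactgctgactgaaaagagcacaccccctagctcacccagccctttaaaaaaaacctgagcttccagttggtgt
Gbp2 (chr3:142620503-142620662, plus strand): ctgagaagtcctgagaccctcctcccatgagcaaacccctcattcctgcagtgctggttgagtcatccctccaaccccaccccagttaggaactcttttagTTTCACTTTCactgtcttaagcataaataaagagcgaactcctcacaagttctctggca
Irgm1 (chr11:48871421-48871580, minus strand): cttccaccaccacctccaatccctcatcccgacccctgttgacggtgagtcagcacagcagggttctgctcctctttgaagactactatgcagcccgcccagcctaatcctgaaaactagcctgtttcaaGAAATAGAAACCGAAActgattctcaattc
Igtp (chr11:58199396-58199555, plus strand): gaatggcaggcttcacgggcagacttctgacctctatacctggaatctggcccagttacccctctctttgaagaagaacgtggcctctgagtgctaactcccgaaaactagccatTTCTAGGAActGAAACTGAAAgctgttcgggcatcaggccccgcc
Irf1 (chr11:53769854-53770013, plus strand): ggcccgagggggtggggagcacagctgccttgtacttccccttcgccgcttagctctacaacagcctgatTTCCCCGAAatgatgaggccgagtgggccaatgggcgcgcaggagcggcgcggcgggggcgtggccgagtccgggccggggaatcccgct

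Isg15 holds overlapping ISRE cores in a row, Ifit1 a pair in reverse, Irgm1 an overlapping pair and Gbp2 a single one. Igtp carries both words side by side, and Irf1 the GAS core alone. RefSeq windows from 250 bases before to 50 bases after the start were at hand for 29 of the 39 genes, and the ISRE core was found on either strand in 16 of them (55.2%), against 1079 of 27025 genes with a window (3.99%). It was found in 11 of 20 type I genes (55%) and 5 of 9 gamma genes (55.6%). The GAS core was in 8 of 29 (27.6%), against 2582 of 27025 (9.55%), with 5 of 20 type I genes (25%) and 3 of 9 gamma genes (33.3%). A match describes these letters only. Zbp1, Ifi27l2a, Oas2, Mx1, Mx2, Usp18, Dhx58, Rtp4, Parp14 and Iigp1 had no window.

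The unit of level is CPM, a gene's share of 1e+06 counts in the scaled library, in replicate order within a group. Estimated counts summed to 38561334 to 57013815 per library, and the lowest count of any member in any library was 23, for Cxcl10 in MK801 replicate 4. Beta cell markers summed to 31900 to 69070 CPM in MK801, 60110 to 125800 CPM in C3H and 19490 to 88290 CPM in B6 control libraries, and digestive enzyme transcripts of acinar cells ran from 12.74 to 54710 CPM over all libraries. Libraries also differed in a trend with the GC content of transcripts, which ran from -0.294 to 0.169 in MK801, from -0.213 to 0.457 in C3H and from -0.456 to 0.588 in B6 control libraries (rank correlation across genes of each library's deviation with GC content). The part of this trend in single members was not tested beyond the fits that include it.

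Over the whole set, MK801 libraries were low, C3H libraries high and B6 controls between. The mean log2 CPM of the 29 type I genes was 3.50 ± 0.696 after MK801 (SD, n = 5), 5.73 ± 0.338 in C3H controls (n = 4) and 4.75 ± 0.575 in B6 controls (n = 7). The mean of the 10 gamma genes was 3.43 ± 0.808 after MK801, 5.31 ± 0.338 in C3H controls and 4.83 ± 0.597 in B6 controls. In 35 of the 39 genes the group means ran in the order MK801, B6 control, C3H from low to high. In Cxcl10, Gbp2 and Irf1 the B6 control mean was above the C3H mean, and in Eif2ak2 the B6 control mean was the lowest. These means are descriptions of a set chosen with earlier results known and carry no test. In bulk tumour RNA, fewer cells that make a transcript and less of it per cell cannot be told apart.

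**Figure D1:**
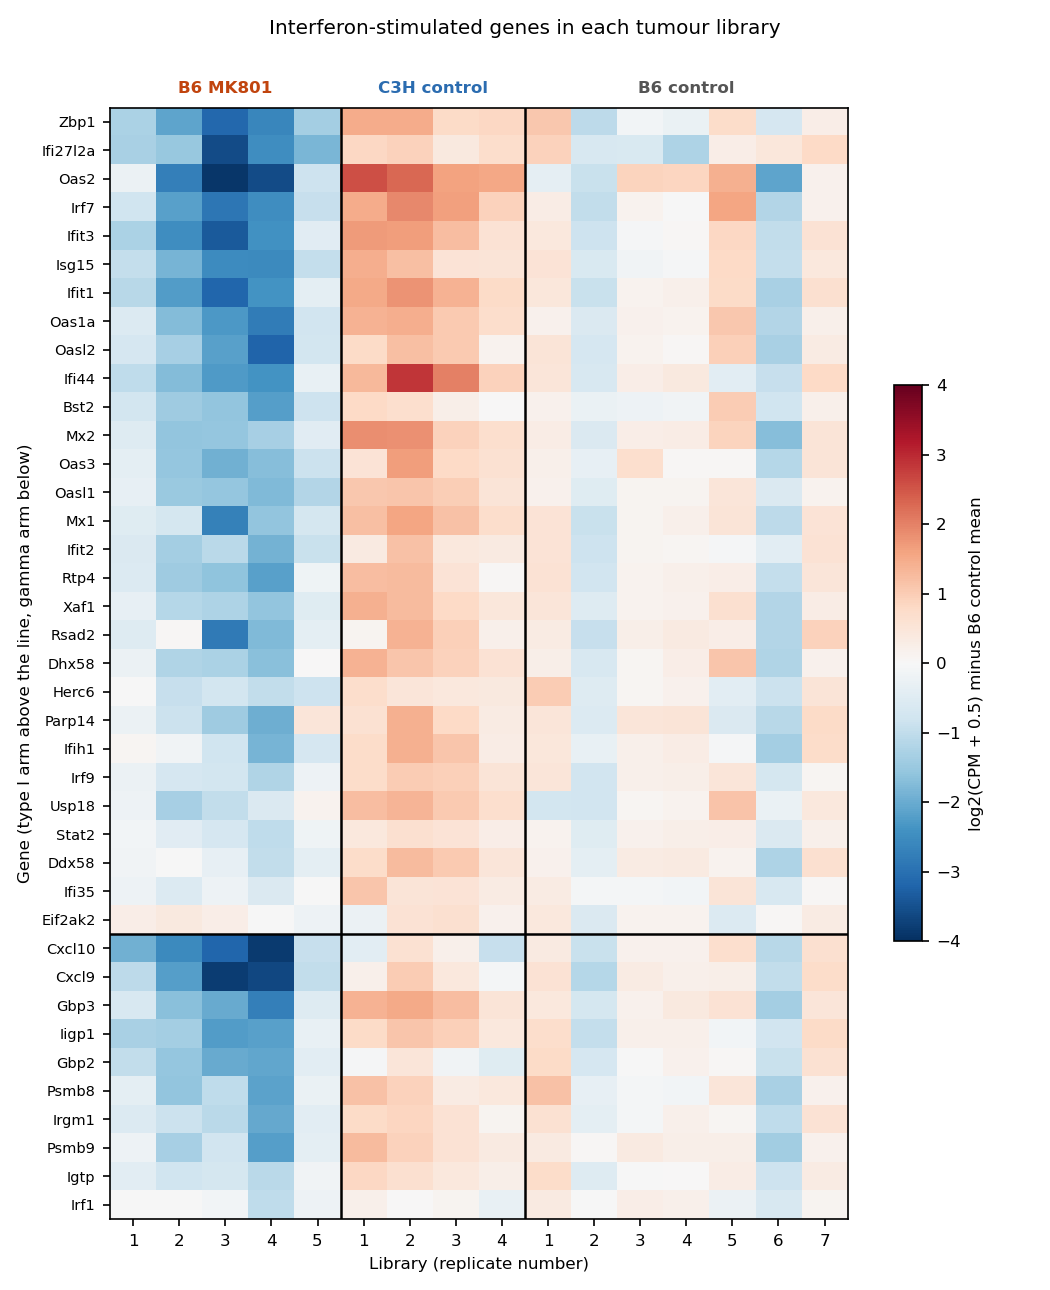
Heat map of log2(CPM + 0.5) of each gene minus its mean in B6 controls (color scale), one row per gene and one column per library, with MK801 libraries at the left, C3H controls in the middle and B6 controls at the right. The MK801 columns are mostly blue and the C3H columns mostly red, MK801 replicates 3 and 4 are the darkest blue, and replicates 2 and 6 of the B6 controls are paler blue over most rows.

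The first comparison asked what 3 days of MK801 did in B6 tumours. Nearly every interferon-stimulated gene was lower after MK801 in the fitted values, but only Zbp1 and Ifi27l2a passed the test over all genes. With an edgeR quasi-likelihood test and Benjamini-Hochberg adjusted p under 0.05, 2 of 39 members were lower and 0 were higher, against 0.473% of the 16084 genes called lower and 0.149% called higher. At an unadjusted p under 0.05, 31 of 39 were lower, against 8.5% of all genes, and 0 were higher, against 3.5%. The log2 fold change was below 0 in 38 of 39 members, against 53.7% of all genes, and its median was -1.25 in the type I arm and -1.26 in the gamma arm, against -0.028 over all genes tested. Zbp1, Ifi27l2a and Isg15 had every MK801 library below every B6 control library, as did 1.14% of all genes. In 21 members the MK801 median was below the lowest B6 control library, and the share of all genes like this was not worked out. The 2 calls lay near the threshold, and the count changed when single libraries were left out, also some of neither compared group. Of the members, 0 passed without MK801 replicate 2, 3 or 4, without B6 control replicate 1, 3 or 7 or without C3H replicate 3. Only 1 passed without B6 control replicate 5 or C3H replicate 2 or 4, and 9 passed without MK801 replicate 5. Between those, 4 passed without MK801 replicate 1 and 5 without B6 control replicate 2 or 6. The fit of MK801 and B6 control libraries alone also called 0 members, and DESeq2 called 21. Shares of all genes called in these other fits were not worked out, so a changed count may not be particular to the members.

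The second comparison set tumours of the C3H strain background against those of B6. Here the same genes were mostly higher in C3H controls, with the type I arm further up than the gamma arm, and Ifi44 alone passed the test. The 1 adjusted call among 39 members stands against 0.883% of all genes called higher, and 0 members were lower, against 1.52%. At an unadjusted p under 0.05, 21 members were higher (4.91% of all genes were), 20 of them in the type I arm and 1, Gbp3, in the gamma arm, and 0 were lower, against 8.93%. The log2 fold change was above 0 in 36 of 39 members, against 47% of all genes, and its median was 0.89 in the type I arm, 0.49 in the gamma arm and -0.028 over all genes. Ifi44, Oasl1, Irf9, Mx1, Oas2, Stat2 and Psmb9 had every C3H library above every B6 control library, as did 1.5% of all genes. In 22 members the C3H median was above the highest B6 control library, again without a share over all genes to set beside it. DESeq2 and limma-voom called 2 members each, and 0 were called without C3H replicate 2 or 3, without B6 control replicate 1, 2, 3, 4 or 6 or without MK801 replicate 2, while 2 were called without B6 control replicate 5. Shares of all genes called in these other fits were not worked out.

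The widest gap lay between MK801 libraries and C3H controls, which differ in both strain and treatment, so that the 2 cannot be told apart in it. In this comparison 34 of 39 members were lower in MK801 tumours and 0 were higher (edgeR adjusted p under 0.05), against 3.07% of all genes called lower and 2.86% called higher. At an unadjusted p under 0.05, 37 were lower, against 9.99% of all genes. The log2 fold change was below 0 in 39 of 39 members, against 51.1% of all genes. The median log2 fold change was -1.98 in the type I arm and -1.68 in the gamma arm, against -0.013 over all genes. In 34 members every MK801 library was below every C3H library, as in 5.7% of all genes. The largest fitted differences were in Oas2 (-3.70), Ifi44 (-3.38), Zbp1 (-3.32), Irf7 (-3.17) and Ifit3 (-3.04), and the smallest adjusted p was that of Oasl1 (0.000794). Gbp2, Parp14, Rsad2, Irf1 and Eif2ak2 did not pass, with edgeR adjusted p-values of 0.0679, 0.0945, 0.0968, 0.547 and 0.689. Of the 34 members, 20 were called under each of the 28 alternatives that kept the threshold of 0.05. Without C3H replicate 2 the count was 21, the only single library to move it by more than 1.5 times. The share of all genes called under each alternative was not worked out. The 3 comparisons share libraries in pairs, so their values are not independent of each other.

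**Figure D2:**
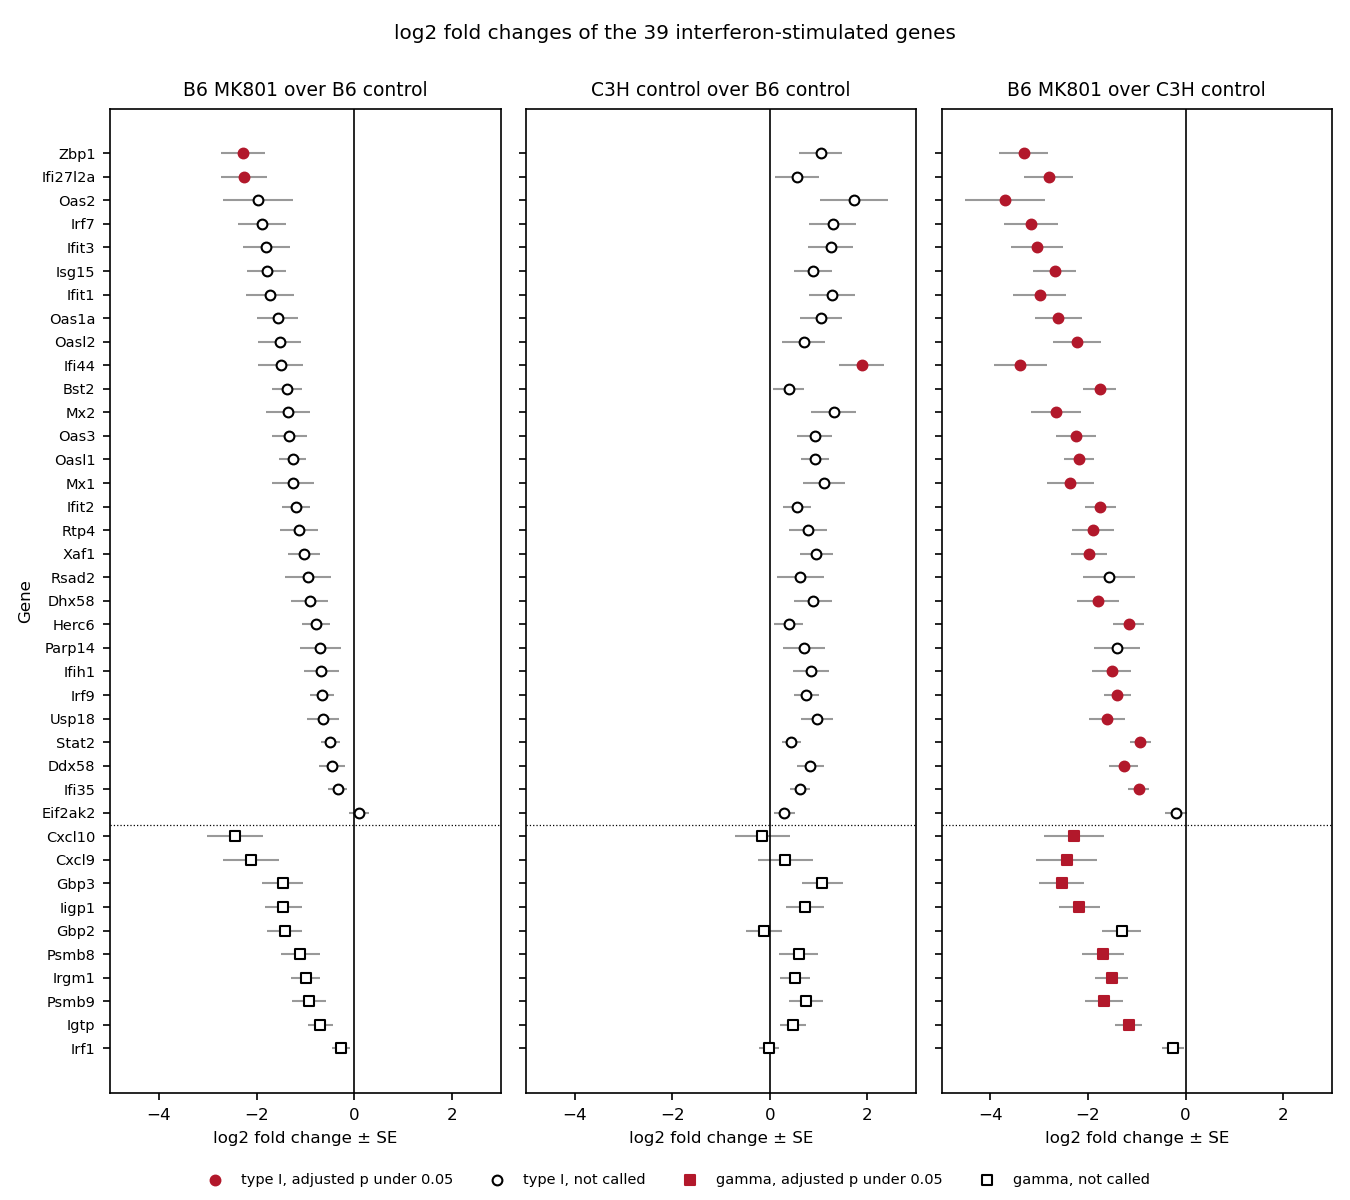
Log2 fold change with its standard error (x axis) of each of the 39 genes (rows, type I arm above the dotted line) in the 3 comparisons, with filled red symbols for edgeR adjusted p under 0.05, circles for the type I arm and squares for the gamma arm. Red symbols number 2 in the left panel, 1 in the middle panel and 34 in the right panel, while 38 of 39 points lie left of 0 in the left panel and 36 of 39 lie right of it in the middle panel.

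Among the transcription factors of the response, Irf7, the factor that amplifies type I interferon production, had 32.4, 12.2, 7.23, 9.76 and 29.8 CPM after MK801, 158, 217, 178 and 107 CPM in C3H controls, and 25.0 to 169 CPM (median 62.5) in B6 controls. All MK801 libraries but replicates 1 and 5 were below the lowest B6 control. The edgeR fit gave log2 fold change -1.89, SE 0.488, edgeR adjusted p = 0.0916 against B6 controls and 1.28 (adjusted p = 0.222) for C3H against B6 controls. Irf9, the DNA-binding subunit of the type I complex, had 34.8, 25.2, 24.2, 17.4 and 35.3 CPM in MK801 libraries and 68.0, 82.4, 79.2 and 59.1 CPM in C3H libraries, while B6 controls had 23.6 to 57.8 CPM with a median of 46.8 CPM. Stat2, its partner, had 49.4, 39.03, 33.5, 26.2 and 46.9 CPM after MK801, 70.9, 83.3, 77.8 and 64.5 CPM in C3H controls, and 35.9 to 64.2 CPM (median 60.7) in B6 controls. All 4 C3H libraries were above all B6 controls for both genes, by small margins, and the adjusted p-values were 0.173 and 0.326. Irf7, Irf9 and Stat2 fell in MK801 tumours against C3H controls, with log2 fold changes of -3.17, -1.40 and -0.93 (adjusted p = 0.00326, 0.00741 and 0.017). Irf1, the first factor induced by interferon gamma, had 68.7, 68.5, 64.0, 34.5 and 60.1 CPM after MK801, 80.9, 69.8, 75.1 and 57.2 CPM in C3H controls, and 44.2 to 88.8 CPM (median 75.7) in B6 controls. MK801 replicate 4 stood apart at the low end, and the other libraries of all groups overlapped. Its log2 fold changes were -0.27 after MK801 and -0.01 in C3H controls (edgeR adjusted p = 0.678 and 0.988), and the C3H value lay near 0, with a sign that turned under some other tools, filters, models and left-out libraries.

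Of the sensors of nucleic acids, Zbp1, which detects Z-form RNA and DNA and can set off necroptosis, had the largest fitted difference. It had 4.90, 2.52, 0.982, 1.66 and 4.57 CPM after MK801, 36.3, 36.4, 21.6 and 22.6 CPM in C3H controls, and 5.88 to 27.0 CPM (median 11.6) in B6 controls. The MK801 range and the B6 control range did not meet, and C3H replicates 1 and 2 exceeded the highest B6 control. Zbp1 fell after MK801 (log2 fold change -2.27, SE 0.456, edgeR adjusted p = 0.0374), and its C3H value did not pass (1.04, edgeR adjusted p = 0.291). The fall was called in 17 of 27 alternatives, with fitted values from -2.65 to -2.04 and an adjusted p of 0.129 at most. Dhx58, which encodes LGP2, had 15.8, 7.69, 7.44, 5.46 and 18.5 CPM after MK801, 49.6, 40.3, 35.1 and 27.7 CPM in C3H controls, and 7.71 to 40.2 CPM (median 20.9) in B6 controls. Ifih1, which encodes the long double-stranded RNA sensor MDA5, had 27.9, 24.1, 15.2, 6.99 and 16.8 CPM in MK801 libraries and 44.8, 71.9, 58.3 and 33.0 CPM in C3H libraries, while B6 controls had 10.1 to 45.2 CPM with a median of 30.9 CPM. Ddx58, which encodes the viral RNA sensor RIG-I, had 42.4, 45.4, 37.2, 23.0 and 34.9 CPM after MK801, 78.3, 113, 97.3 and 65.2 CPM in C3H controls, and 19.2 to 72.0 CPM (median 52.6) in B6 controls. In these 3 genes the MK801 and B6 control ranges overlapped, and all C3H libraries lay above the B6 control median. Dhx58, Ifih1 and Ddx58 did not pass after MK801 or in C3H controls and fell in MK801 tumours against C3H controls, with log2 fold changes of -1.80, -1.51 and -1.27 (adjusted p = 0.0211, 0.0364 and 0.0207). Eif2ak2, which encodes the RNA-activated kinase PKR that halts translation, was the 1 member whose log2 fold change after MK801 was above 0. It had 67.4, 73.8, 67.5, 55.7 and 48.7 CPM after MK801, 47.9, 85.1, 88.9 and 64.2 CPM in C3H controls, and 38.0 to 76.3 CPM (median 63.1) in B6 controls, with overlap between all groups, and its log2 fold changes were 0.10 after MK801, 0.29 in C3H controls and -0.19 between MK801 and C3H tumours (edgeR adjusted p of 0.939, 0.603 and 0.689).

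Active oligoadenylate synthetases make the messenger that switches on RNase L. The 5 measured genes of the family, which include the synthetase-like Oasl1 and Oasl2, lie on mouse chromosome 5. Oas1a had 18.7, 7.82, 5.24, 3.51 and 15.9 CPM after MK801, 73.4, 75.3, 56.8 and 45.0 CPM in C3H controls, and 11.9 to 58.8 CPM (median 30.8) in B6 controls. Oas2 had 20.9, 3.27, 1.19, 1.59 and 13.7 CPM in MK801 libraries and 149, 123, 76.5 and 73.9 CPM in C3H libraries, while B6 controls had 5.40 to 66.7 CPM with a median of 27.8 CPM. MK801 replicates 2, 3 and 4 were below every B6 control in both genes, while replicates 1 and 5 lay inside the B6 control range. Oas3 had 10.3, 4.40, 3.28, 3.84 and 7.39 CPM after MK801, 20.3, 45.0, 24.4 and 21.4 CPM in C3H controls, and 5.99 to 22.2 CPM (median 14.2) in B6 controls. Oasl2 had 34.6, 22.1, 11.9, 5.61 and 33.3 CPM in MK801 libraries and 95.3, 129.6, 115 and 61.7 CPM in C3H libraries, while B6 controls had 22.4 to 108 CPM with a median of 61.2 CPM, with the lowest values again in MK801 replicates 3 and 4. Oasl1, which in mice holds back the translation of Irf7, had 11.9, 5.06, 4.80, 4.04 and 6.40 CPM after MK801, 32.4, 33.1, 30.1 and 21.6 CPM in C3H controls, and 9.88 to 21.1 CPM (median 16.4) in B6 controls. For Oasl1 all C3H libraries were above all B6 controls and only MK801 replicate 1 entered the B6 control range. The log2 fold changes of the family after MK801 ran from -1.97 for Oas2 to -1.26 for Oasl1, and 0 of 5 passed, the lowest edgeR adjusted p being 0.0533 for Oasl1. In C3H controls they ran from 0.69 for Oasl2 to 1.72 for Oas2, with 0 of 5 passing. All 5 were lower in MK801 tumours than in C3H controls, with log2 fold changes of -2.19 to -3.70 (edgeR adjusted p of at most 0.015).

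Of the effectors that block viruses, Ifit1, whose product binds viral RNA that lacks the host's cap methylation, had 13.2, 5.68, 2.71, 5.13 and 21.9 CPM after MK801, 83.2, 101, 77.0 and 49.0 CPM in C3H controls, and 11.5 to 49.2 CPM (median 33.2) in B6 controls. Its neighbours on chromosome 19, Ifit2 and Ifit3, were measured too. Ifit2 had 26.6, 15.2, 18.4, 10.3 and 21.2 CPM in MK801 libraries and 51.5, 90.2, 53.1 and 51.1 CPM in C3H libraries, while B6 controls had 22.1 to 59.2 CPM with a median of 41.7 CPM. Ifit3 had 17.3, 7.09, 3.69, 7.55 and 30.9 CPM after MK801, 139, 137, 99.98 and 64.2 CPM in C3H controls, and 20.98 to 75.4 CPM (median 44.2) in B6 controls. In these 3 Ifit genes MK801 replicate 5 or 1 reached into the B6 control range, and C3H replicate 2 was at 90.2 CPM of Ifit2 against 51.1 to 53.2 CPM in the other C3H libraries. Mx1, a GTPase against influenza-like viruses that is defective in many inbred mouse strains, had 6.01, 5.13, 0.904, 2.53 and 5.13 CPM after MK801, 20.2, 26.3, 20.04 and 14.4 CPM in C3H controls, and 3.90 to 12.9 CPM (median 9.85) in B6 controls. Mx2 had 3.24, 1.26, 1.32, 1.61 and 3.34 CPM in MK801 libraries and 18.9, 18.2, 9.59 and 7.89 CPM in C3H libraries, while B6 controls had 1.13 to 9.43 CPM with a median of 5.99 CPM. All C3H libraries were above all B6 controls in Mx1, and C3H replicate 4 fell inside the B6 control range in Mx2. Bst2, which encodes the tether that holds budding virions on the cell, had 30.2, 18.8, 16.7, 10.5 and 28.2 CPM after MK801, 89.5, 81.9, 60.5 and 51.7 CPM in C3H controls, and 29.3 to 103 CPM (median 45.9) in B6 controls. Rsad2, which encodes viperin, had 20.8, 31.0, 3.77, 8.36 and 22.4 CPM after MK801, 32.4, 79.6, 58.8 and 34.0 CPM in C3H controls, and 12.99 to 57.0 CPM (median 35.8) in B6 controls. After MK801 the log2 fold changes of these 7 genes ran from -1.80 for Ifit3 to -0.94 for Rsad2, with 0 passing and the lowest edgeR adjusted p at 0.058 for Bst2. In C3H controls they ran from 0.38 for Bst2 to 1.30 for Mx2, with 0 passing. In MK801 tumours against C3H controls 6 of 7 were called lower, with log2 fold changes of -1.75 for Ifit2 to -3.04 for Ifit3. Rsad2 did not pass although its MK801 and C3H ranges did not meet.

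Isg15 encodes a ubiquitin-like protein that is attached to other proteins, Herc6 the main mouse ligase for it, and Usp18 the protease that removes it and damps the type I receptor. Isg15 had 8.94, 4.51, 2.66, 2.58 and 8.77 CPM after MK801, 48.8, 41.4, 25.7 and 25.4 CPM in C3H controls, and 8.95 to 30.9 CPM (median 16.8) in B6 controls. The MK801 and B6 control ranges met almost edge to edge, at 8.94 CPM in MK801 replicate 1 and 8.95 CPM in the lowest B6 control, and the fit gave log2 fold change -1.79, SE 0.401, edgeR adjusted p = 0.0567. Usp18 had 38.3, 17.3, 21.7, 29.3 and 48.5 CPM in MK801 libraries and 103, 113, 90.5 and 70.4 CPM in C3H libraries, while B6 controls had 25.4 to 96.6 CPM with a median of 46.4 CPM. Herc6 had 44.4, 23.8, 26.9, 22.8 and 25.2 CPM after MK801, 74.0, 63.1, 60.4 and 59.9 CPM in C3H controls, and 24.9 to 91.6 CPM (median 48.0) in B6 controls, and MK801 replicate 1 stood above the other 4 MK801 libraries. Neither Usp18 (-0.64, edgeR adjusted p = 0.479) nor Herc6 (-0.79, edgeR adjusted p = 0.239) passed after MK801. In C3H controls the log2 fold changes were 0.89 for Isg15, 0.97 for Usp18 and 0.38 for Herc6, with edgeR adjusted p-values from 0.189 to 0.62. All 3 were lower in MK801 tumours than in C3H controls, with log2 fold changes of -2.68, -1.60 and -1.17.

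A further group of induced genes held the other 2 genes called against B6 controls. Ifi27l2a, a member of the Ifi27 family, had 6.91, 5.79, 1.03, 2.75 and 4.59 CPM after MK801, 31.5, 34.2, 23.3 and 29.02 CPM in C3H controls, and 7.24 to 34.0 CPM (median 21.4) in B6 controls. All MK801 libraries were below all B6 controls, and all but 1 of the C3H libraries lay inside the B6 control range. Ifi27l2a fell after MK801 (log2 fold change -2.25, SE 0.464, edgeR adjusted p = 0.0406), a call made in 14 of 27 alternatives with adjusted p-values of up to 0.14, and its C3H value was 0.55 (edgeR adjusted p = 0.64). Ifi44 had 7.61, 4.42, 2.92, 2.60 and 12.7 CPM after MK801, 39.3, 117, 66.0 and 30.7 CPM in C3H controls, and 8.16 to 28.1 CPM (median 19.3) in B6 controls. All C3H libraries were above all B6 controls, and 4 of 5 MK801 libraries were below them. Ifi44 was higher in C3H than in B6 controls (log2 fold change 1.88, SE 0.46, edgeR adjusted p = 0.041), a call made in 14 of 27 alternatives. Without C3H replicate 2, the highest, the edgeR adjusted p was 0.22. Xaf1, which encodes a partner of an apoptosis inhibitor, had 11.8, 6.43, 5.99, 4.61 and 10.4 CPM after MK801, 40.6, 36.4, 26.02 and 20.6 CPM in C3H controls, and 6.21 to 23.4 CPM (median 16.7) in B6 controls. Rtp4, which encodes a chaperone of G-protein-coupled receptors, had 14.9, 7.89, 6.74, 4.43 and 19.2 CPM in MK801 libraries and 51.6, 53.0, 32.3 and 22.8 CPM in C3H libraries, while B6 controls had 11.1 to 33.1 CPM with a median of 25.1 CPM. In Xaf1 and Rtp4, MK801 replicates 3 and 4 were below every B6 control and replicates 1 and 5 were not. Ifi35 had 32.4, 25.5, 32.3, 24.8 and 36.9 CPM after MK801, 81.5, 53.4, 54.7 and 47.0 CPM in C3H controls, and 23.9 to 53.7 CPM (median 35.6) in B6 controls. Parp14, which encodes an ADP-ribosyltransferase, had 45.6, 29.5, 19.6, 13.6 and 75.8 CPM in MK801 libraries and 82.1, 146, 93.2 and 67.3 CPM in C3H libraries, while B6 controls had 24.6 to 92.6 CPM with a median of 74.7 CPM, and its groups all overlapped. Ifi27l2a, Ifi44, Xaf1, Rtp4 and Ifi35 were lower in MK801 tumours than in C3H controls, with log2 fold changes of -0.96 for Ifi35 to -3.38 for Ifi44.

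In the gamma arm, the chemokines Cxcl9 and Cxcl10, which draw T and NK cells through the receptor Cxcr3, had the largest fitted drops of the arm after MK801. Cxcl9 had 8.71, 3.62, 0.853, 1.03 and 9.09 CPM after MK801, 21.2, 37.8, 24.8 and 17.2 CPM in C3H controls, and 8.06 to 31.1 CPM (median 21.5) in B6 controls. Cxcl10 had 3.26, 1.95, 1.08, 0.502 and 7.01 CPM after MK801, 10.2, 21.1, 15.9 and 6.96 CPM in C3H controls, and 6.01 to 21.9 CPM (median 15.47) in B6 controls. MK801 replicates 3 and 4 were near 1 CPM or below in both genes, replicate 5 reached the B6 control range in both and replicate 1 in Cxcl9, and C3H and B6 control libraries overlapped. The log2 fold changes after MK801 were -2.12 with a standard error of 0.576 for Cxcl9 and -2.44 with a standard error of 0.574 for Cxcl10 (edgeR adjusted p = 0.102 and 0.0669), so neither passed. In C3H controls they were 0.31 and -0.15 (edgeR adjusted p = 0.841 and 0.928). Both fell in MK801 tumours against C3H controls, with log2 fold changes of -2.44 and -2.29 (adjusted p = 0.0312 and 0.0375).

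The GTPases of the gamma arm belong to families that act against microbes inside cells, some by coating and breaking the compartments where microbes hide. Of the guanylate-binding proteins, Gbp2 had 10.4, 6.96, 4.91, 4.61 and 15.8 CPM after MK801, 20.6, 29.9, 19.3 and 15.0 CPM in C3H controls, and 11.2 to 36.5 CPM (median 21.8) in B6 controls. Gbp3 had 19.6, 9.46, 7.26, 4.28 and 21.4 CPM in MK801 libraries and 81.8, 89.1, 73.3 and 44.7 CPM in C3H libraries, while B6 controls had 11.8 to 47.1 CPM with a median of 41.1 CPM. The neighbours on chromosome 3 differed in the C3H libraries, which lay inside the B6 control range in Gbp2 and, for 3 of 4, above it in Gbp3, but the difference between the genes was not tested. Their log2 fold changes were -1.43 and -1.46 after MK801 (edgeR adjusted p = 0.0888 and 0.113) and -0.12 and 1.08 in C3H controls (edgeR adjusted p = 0.92 and 0.241). Of the immunity-related GTPases, Iigp1 had 9.72, 9.42, 4.91, 5.06 and 20.1 CPM after MK801, 42.0, 54.0, 48.7 and 33.2 CPM in C3H controls, and 12.7 to 42.2 CPM (median 28.3) in B6 controls. Irgm1 had 30.3, 23.8, 20.6, 10.2 and 32.6 CPM in MK801 libraries and 74.7, 79.8, 65.7 and 47.5 CPM in C3H libraries, while B6 controls had 21.7 to 67.0 CPM with a median of 47.0 CPM. Igtp had 20.8, 15.8, 17.0, 13.1 and 25.3 CPM after MK801, 50.5, 44.4, 37.8 and 32.9 CPM in C3H controls, and 15.6 to 47.4 CPM (median 28.4) in B6 controls. In all 3 the MK801 libraries and the C3H libraries did not meet, and each group overlapped the B6 controls. After MK801 the log2 fold changes were -1.45 for Iigp1, -0.996 for Irgm1 and -0.69 for Igtp, with edgeR adjusted p-values from 0.0974 to 0.239. Gbp3, Iigp1, Irgm1 and Igtp were lower in MK801 tumours than in C3H controls, with log2 fold changes of -1.17 for Igtp to -2.54 for Gbp3, while Gbp2 did not pass.

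Psmb8 and Psmb9 encode catalytic subunits that replace the standard ones in the immunoproteasome, the form of the proteasome that cuts peptides for antigen presentation. Psmb8 had 30.3, 12.8, 19.2, 8.6 and 32.7 CPM after MK801, 88.9, 75.7, 49.99 and 53.3 CPM in C3H controls, and 15.7 to 89.9 CPM (median 37.5) in B6 controls. Psmb9 had 21.4, 9.48, 14.1, 4.87 and 18.4 CPM in MK801 libraries and 59.3, 46.4, 36.8 and 31.4 CPM in C3H libraries, while B6 controls had 9.10 to 31.3 CPM with a median of 28.7 CPM. For Psmb9 all C3H libraries were above all B6 controls, of which replicate 6 stood apart at 9.10 CPM. After MK801 the log2 fold changes were -1.10 and -0.93 (edgeR adjusted p = 0.229 and 0.255), and in C3H controls 0.59 and 0.74 (edgeR adjusted p = 0.566 and 0.376). Both fell in MK801 tumours against C3H controls, with log2 fold changes of -1.69 and -1.67 (adjusted p = 0.0325 and 0.019).

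The gamma arm stood lower against the type I arm in C3H libraries than in B6 controls. The gamma mean minus the type I mean in log2 CPM was -0.065 ± 0.268 after MK801 (SD, n = 5), with a range of -0.451 to 0.191. It was -0.412 ± 0.0408 in C3H controls (n = 4), with a range of -0.455 to -0.377, and 0.078 ± 0.154 in B6 controls (n = 7), with a range of -0.192 to 0.305. All C3H libraries were below all B6 controls in this difference, while MK801 libraries spanned both, with replicate 4 at the bottom. These differences carry no test, since the members were chosen with results known.

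**Figure D3:**
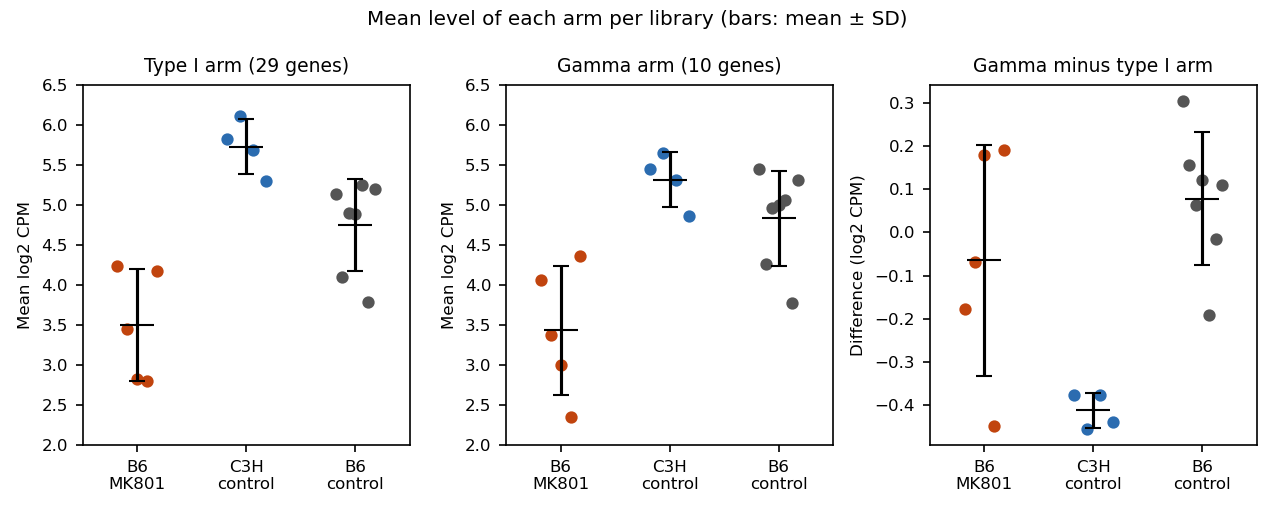
Mean log2 CPM of the type I arm (left), of the gamma arm (middle) and their difference (right), one point per library, with the group mean and SD as bars and the groups in the order MK801, C3H control and B6 control. MK801 points run from 2.80 to 4.24 and C3H points from 5.29 to 6.10 in the type I arm, and C3H differences lie between -0.455 and -0.377.

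The members varied together from library to library, which left few independent readings within a group. After the group means were taken out, the median Pearson r over the 16 libraries was 0.728 among 406 pairs of type I genes, 0.837 among 45 pairs of gamma genes and 0.761 among 290 pairs across the arms. These are descriptions over libraries that differ in depth and tumour content, and the part of those differences was not tested. Of the 39 genes, Gbp3 of the gamma arm was closest to the mean of the type I genes (r = 0.97), and Eif2ak2 (r = 0.112) and Ifi27l2a (r = 0.448), each set against the other type I genes, were the farthest. In MK801 libraries the lowest level of a gene was in replicate 4 for 25 of 39 genes and in replicate 3 for 11, and the highest was in replicate 1 or 5 for 18 genes each. In C3H libraries replicate 2 was the highest for 25 genes and replicate 4 the lowest for 33. In B6 controls replicate 6 was the lowest for 31 genes and replicate 2 for 7, so that the lower edge of the control range was set by these libraries. How often each library was lowest or highest over all genes was not worked out, so these counts may not be particular to the members.

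Transcripts of the interferons themselves were scarce and were not tested. Of 19 interferon genes in the table, 0 passed the filter, 8 had no count in any library, and 16 had at most 2 counts in every library. Ifnb1, the gene of interferon beta, had 0 to 2 counts per MK801 library, 1 to 6 per C3H library and 0 to 2 per B6 control, and summed to 3 counts over MK801, 11 over C3H and 5 over B6 control libraries. Ifng had 0 to 2 counts per MK801 library with 4 of 5 at 0, 1 to 5 per C3H library with none at 0, and 0 to 4 per B6 control with 1 of 7 at 0, and summed to 2 counts over MK801, 13 over C3H and 17 over B6 control libraries. Ifnz, a type I interferon gene, ran the other way from the interferon-stimulated genes in the MK801 and C3H groups, with 2 to 12 counts in each of the 5 MK801 libraries (24 in all), 0 in all 4 C3H libraries, and 0 to 7 in B6 controls (18 in all, with 4 of 7 at 0). It belongs to a family of near-identical copies, so its level is uncertain.

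Among the receptors 0 of 6 genes passed in any comparison, a count that says little about them where between 0.149% and 3.07% of all genes were called in a given direction. Ifnar1 and Ifnar2, the type I receptor chains, had log2 fold changes of -0.10 and -0.57 after MK801 (edgeR adjusted p = 0.901 and 0.208) and -0.17 and -0.15 in C3H controls (edgeR adjusted p = 0.682 and 0.788). Ifngr1 and Ifngr2, the gamma receptor chains, had -0.21 and -0.17 after MK801 (edgeR adjusted p = 0.668 and 0.795) and 0.03 and -0.17 in C3H controls (edgeR adjusted p = 0.953 and 0.714). Between MK801 and C3H tumours the 4 values were 0.07, -0.42, -0.24 and -0.001 (edgeR adjusted p from 0.306 to 0.998). The standard errors of these values ran from 0.141 to 0.22, so small changes in receptor transcripts could not be seen.

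Of 9 signalling genes described 0 passed after MK801 (0.473% of all genes were called lower) or in C3H controls (0.883% were called higher). In MK801 tumours against C3H controls 2 were called lower (3.07% of all genes were). Ciita and Nlrc5, the transactivators of MHC class II and class I genes, fell, with log2 fold changes of -2.75 and -1.66 in MK801 tumours against C3H controls (edgeR adjusted p = 0.00523 and 0.0381). Ciita had 0.779, 0.442, 0.181, 0.458 and 0.217 CPM after MK801, 1.95, 3.90, 2.08 and 3.33 CPM in C3H controls, and 0.541 to 2.504 CPM (median 1.67) in B6 controls.

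Of 11 upstream sensing genes 1 passed after MK801, where 0.473% of all genes were called lower. Tmem173, which encodes STING, the adaptor that turns cytosolic DNA into an interferon signal, had 5.70, 5.57, 5.92, 3.88 and 4.99 CPM after MK801, 7.42, 14.4, 9.38 and 10.2 CPM in C3H controls, and 7.91 to 18.6 CPM (median 11.9) in B6 controls. All MK801 libraries were below all B6 controls and all C3H libraries, and Tmem173 fell after MK801 (log2 fold change -1.27, SE 0.26, edgeR adjusted p = 0.0406). Between MK801 and C3H tumours its log2 fold change was -0.99 and did not pass (edgeR adjusted p = 0.053). The endosomal receptors Tlr9, for DNA, and Tlr3, for double-stranded RNA, fell in MK801 tumours against C3H controls, with log2 fold changes of -2.03 and -1.25 (adjusted p = 0.0158 and 0.0413). Of 7 brake genes 1 passed in C3H controls, where 0.883% of all genes were called higher. This was Adar, which edits double-stranded RNA and keeps it from the sensors (log2 fold change 0.63, SE 0.158, edgeR adjusted p = 0.0475). It had 79.4, 87.0, 69.7, 91.3 and 66.7 CPM after MK801, 100.5, 140.4, 129.8 and 106 CPM in C3H controls, and 51.9 to 98.7 CPM (median 76.4) in B6 controls, with every C3H library above every B6 control.

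**Figure D4:**
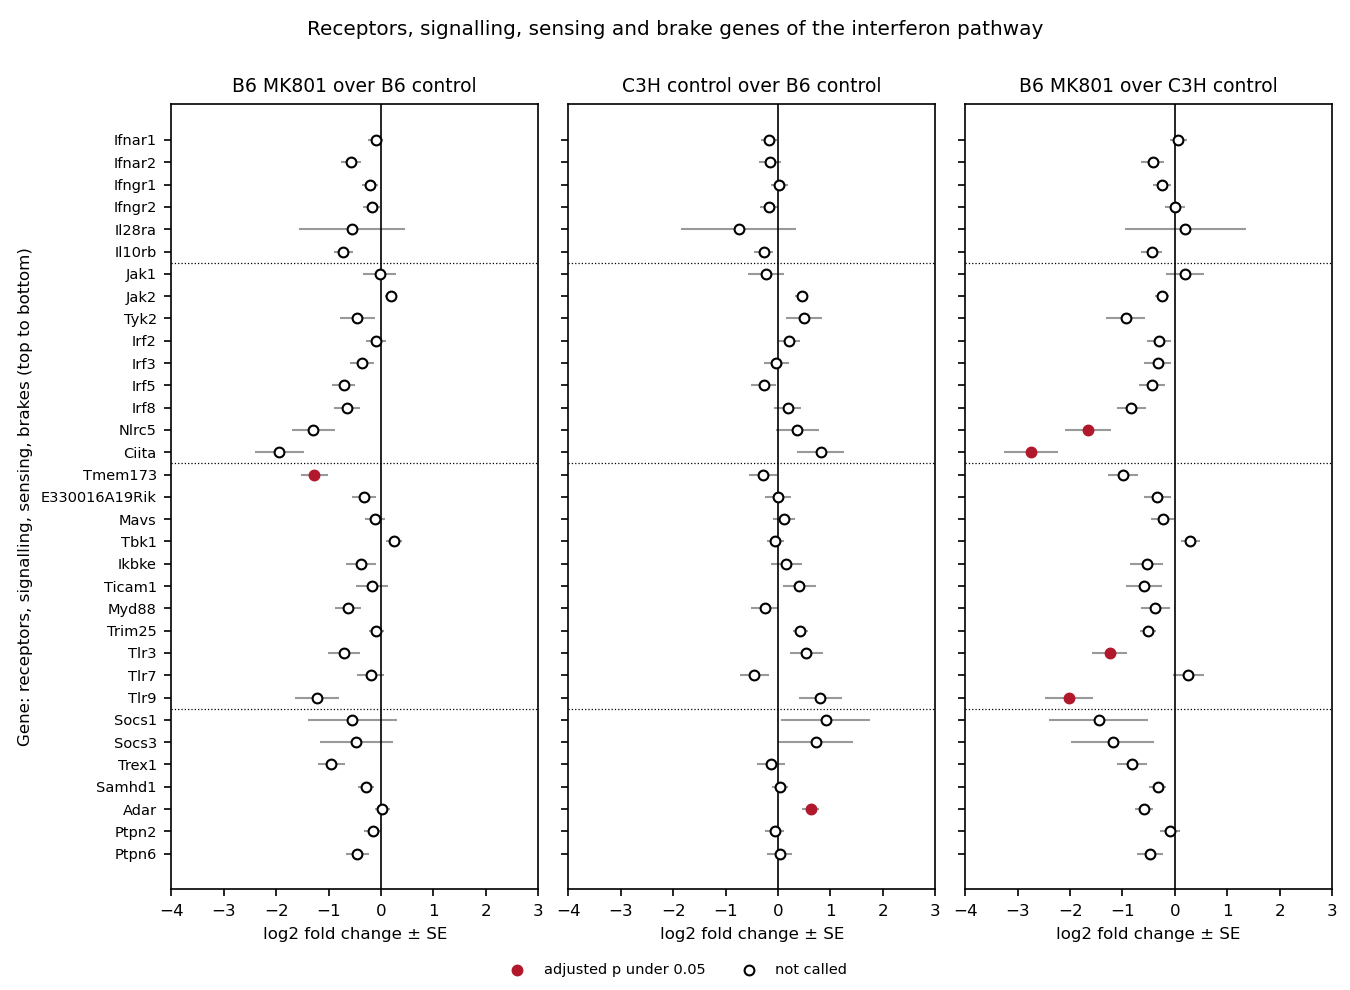
Log2 fold change with its standard error (x axis) of receptor, signalling, sensing and brake genes of the interferon pathway (rows, separated by dotted lines) in the 3 comparisons, with filled red points for edgeR adjusted p under 0.05. Red points are Tmem173 in the left panel, Adar in the middle panel, and Nlrc5, Ciita, Tlr3 and Tlr9 in the right panel.

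Summed markers of several immune cell types had lower medians in MK801 libraries than in B6 controls. Those of neutrophils and plasmacytoid dendritic cells had nearly the same range or median in both, but a sum mostly follows its most abundant genes. Gene by gene, the median log2 fold change after MK801 was -0.948 over 4 tested neutrophil markers, with 1 above 0. It was -0.615 over 6 plasmacytoid dendritic cell markers, with 2 above 0. The 4 general leukocyte markers summed to 72.7 to 113 CPM in MK801, 106 to 145 CPM in C3H and 98.7 to 191 CPM in B6 control libraries. The 9 macrophage markers summed to 644 to 958 CPM in MK801, 848 to 1084 CPM in C3H and 988 to 1701 CPM in B6 control libraries, and all C3H libraries lay below the B6 control median of that sum. The 13 T and NK cell markers summed to 9.24 to 36.1 CPM in MK801, 19.3 to 29.8 CPM in C3H and 15.4 to 48.5 CPM in B6 controls, and the 6 B and plasma cell markers to 1.13 to 3.32 CPM in MK801, 11.2 to 14.5 CPM in C3H and 4.29 to 8.76 CPM in B6 controls. After MK801 edgeR called none of these markers, and at an unadjusted p under 0.05 it put 3 of 4 leukocyte, 8 of 9 macrophage, 10 of 12 tested T and NK cell and 5 of 5 tested B and plasma cell markers lower, with 3 of 6 conventional and 1 of 6 plasmacytoid dendritic cell and 3 of 4 tested neutrophil markers, against 8.5% of all genes. In MK801 tumours against C3H controls it called 2 T and NK cell, 2 neutrophil, 1 macrophage, 1 conventional dendritic cell and 1 B and plasma cell markers lower, against 3.07% of all genes. In C3H against B6 controls it called Igj, the antibody joining chain of plasma cells, higher (log2 fold change 1.90, edgeR adjusted p = 0.00516) and the B cell receptor gene Cd79b lower (-1.70, edgeR adjusted p = 0.0331), and the other 3 tested B and plasma cell markers did not pass. The 6 conventional dendritic cell markers summed to 20.5 to 35.4 CPM in MK801, 31.6 to 66.9 CPM in C3H and 33.8 to 66.1 CPM in B6 control libraries. The 5 neutrophil markers summed to 11.7 to 17.2 CPM in MK801, 12.9 to 22.4 CPM in C3H and 11.7 to 17.8 CPM in B6 controls, and the 6 plasmacytoid dendritic cell markers had medians of 199.9 CPM in MK801, 172 CPM in C3H and 212 CPM in B6 controls. The 7 fibroblast and mural cell markers summed to 374 to 645 CPM in MK801, 546 to 1122 CPM in C3H and 694 to 1120 CPM in B6 controls. No list had a marker at 0 in every library. The part of these cells in the interferon-stimulated genes was not tested.

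Within groups, MK801 replicate 5 had the highest leukocyte sum of its group (113 CPM) and replicate 4 the lowest (72.7 CPM), and B6 control replicates 2 and 6, low in interferon-stimulated genes, had the lowest of theirs (98.7 and 110.3 CPM). Some other libraries and lists did not run this way. C3H replicate 4, the lowest of its group for 33 of 39 members, had a leukocyte sum of 137 CPM, against 106 to 145 CPM over the C3H group. B6 control replicate 6 had a macrophage sum of 1223 CPM, above the B6 control median of 1181 CPM. B6 control replicate 5, the highest of its group for 18 members, had a T and NK cell sum of 22.4 CPM, below the 24.6 CPM of replicate 6.

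**Figure D5:**
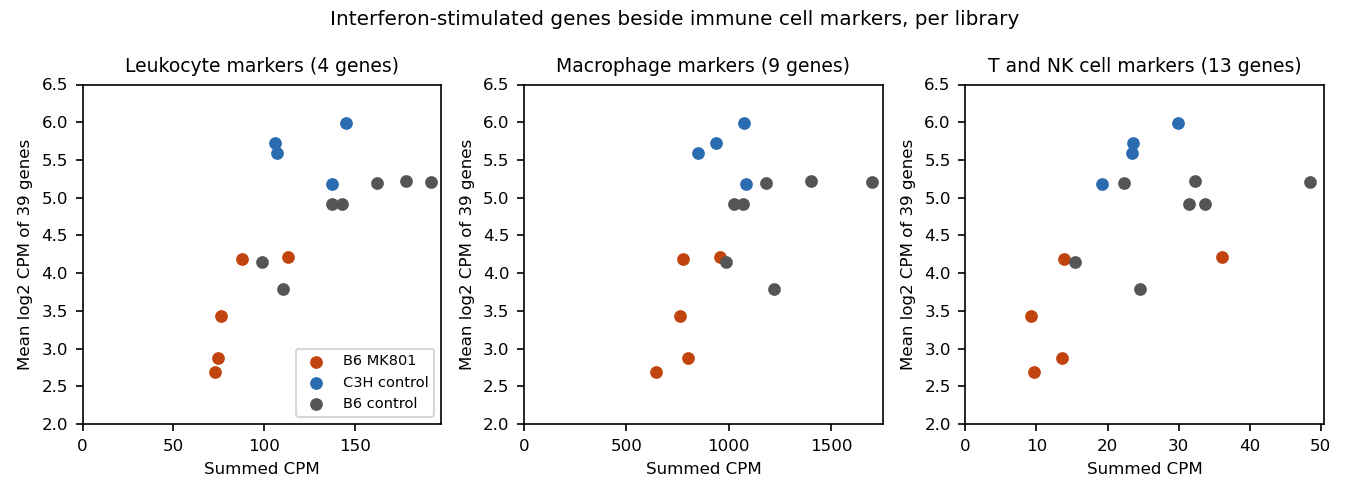
Mean log2 CPM of the 39 genes (y axis) against the summed CPM of leukocyte, macrophage, and T and NK cell markers (x axes), one point per library, colored by group. MK801 points run from 2.69 to 4.22 and C3H points from 5.18 to 5.99 on the y axis, and no line is fitted.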

How the data were processed

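Libraries of polyA RNA were prepared with the Illumina TruSeq kit, per the labels' protocols. Genome build mm9, RSEM 1.2.12 and Bowtie 1.0.1 are named in the submitters' processing notes, without an annotation or a strand setting. Estimated counts for each gene, neither whole nor normalized, were deposited by the authors. They also deposited a normalized signal, which the values show to be those counts times 1 factor per library. RSEM splits reads between similar copies, so levels within the Oas, Oasl, Ifit, Mx, Gbp and Ifi27 families are uncertain, and C3H reads were set against a B6-based genome.

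Counts were rounded and fitted in R 4.3.3 with edgeR 4.0.16 (filterByExpr, minimum count 10; TMM factors; 1 quasi-likelihood fit of all 3 groups without a block), with Benjamini-Hochberg adjustment over 16084 genes and a threshold of 0.05. Dividing a log2 fold change by the square root of its F statistic gave its standard error. CPM are per 1e+06 counts of the scaled library, and log2 CPM means used a prior count of 2. Depth was 38561334 to 57013815 estimated counts, so counting error is small for most members beside the spread between libraries. The steps were tested on simulated data with 100 genes changed at each size. A log2 change of 1 was called in 35% of them for MK801 against B6 controls. The share was 28% for C3H against B6 controls and 16% for MK801 against C3H controls. For a log2 change of 2 the shares were 81%, 79% and 77%, so smaller changes were mostly missed in the simulation. More genes than were changed there were called in the data for MK801 against C3H controls (493 lower and 460 higher). The adjusted cut-off was looser in that comparison, so the simulated shares need not hold for it. Replicates of a group differed by far more than sampling noise (chi-square per degree of freedom at least 118.5).

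The members, their arms, the gene and marker lists and the tests were chosen with earlier results of these data known. All 39 members are named whether called or not, with values per library for the MK801 and C3H groups and the range and median for B6 controls. Of the pathway lists, genes that passed are named, with the main ligands and receptors whatever their p; 1 signalling gene is not reported here.

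Same-numbered MK801 and C3H libraries deviated together (r = 0.137 to 0.37 over 4 pairs), which counts as pairing by the rule used, from the data and not from the labels. Libraries with different numbers were not compared in this way, so these values do not show that the numbers pair the samples. With the replicate number as a block, 35 members were called lower in MK801 tumours against C3H controls, or 36 in a fit of those groups alone. No share of all genes was worked out for either count. GC content came from GENCODE M21 transcripts for 98.6% of genes tested and all 39 members. Columns that belong to no sample numbered 0.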

Additional observations from a re-analysis of the deposited data

Results flagged for a closer look

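Single libraries stood apart from the rest of their group in 4 of 123 combinations of a group with a member or arm score examined with Dixon's test, where chance gives about 1 in 20. Ifit2 was at 90.16 CPM in C3H control replicate 2, against 51.09 to 53.15 CPM in the other C3H libraries. Herc6 was at 44.42 CPM in B6 MK801 replicate 1, against 22.77 to 26.89 CPM in the other MK801 libraries. Irf1 was at 34.47 CPM in B6 MK801 replicate 4, against 60.1 to 68.69 CPM in the others of that group. Psmb9 was at 9.096 CPM in B6 control replicate 6, against 25.2 to 31.29 CPM in the other B6 controls. B6 MK801 replicate 4 was the lowest of its group for 25 of the 39 members, and B6 control replicate 6 for 31 of 39, without a share over all genes to set beside them. The cause of these values was not tested.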

How the results depend on the processing

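Median log2 fold changes of both arms kept their sign and stayed within the replicate spread under every alternative run, from -1.68 to -1.04 after MK801, 0.38 to 1.02 in C3H controls and -2.41 to -1.51 in MK801 tumours against C3H controls. Counts of calls did not. The share of all genes called under each alternative was not worked out, so a change in a count may not be particular to the members. Members called lower after MK801, 2 in the report, numbered 21 with DESeq2, 4 with limma-voom, 10 with limma on the authors' normalized values, 7 with a GC trend covariate, 24 with the replicate block and that covariate, 11 at an adjusted p under 0.1, and 0 at 0.01, in a fit of the 2 groups alone, with the replicate block, and without the 3 libraries of steepest GC trend (an alternative chosen after seeing the data). Leaving out a library gave 0 to 9. Members called higher in C3H controls, 1 in the report, numbered 2 with DESeq2 and limma-voom, 0 with limma on normalized values, the replicate block, an adjusted p under 0.01 and without the 3 libraries, and 0 to 2 with a library left out. Members called lower in MK801 tumours against C3H controls, 34 in the report, numbered 18 at an adjusted p under 0.01 and 21 to 35 with a library left out. In both comparisons with B6 controls the numbers did not pair the samples by the rule used (r from -0.312 to 0.114), and the block result there rests on a shared number alone. Signs turned in 4 members near 0. In C3H controls Irf1 came to 0.007 with DESeq2, 0.008 with limma-voom, 0.038 with a stricter low-count filter, 0.006 in the 2 groups alone, 0.041 with the GC covariate and -0.100 to 0.083 with a library left out. Cxcl10 came to 0.016 with the block, 0.229 with block and GC covariate, 0.241 without the 3 libraries and -0.448 to 0.064 with a library left out. Gbp2 came to 0.004, 0.193, 0.011 and -0.322 to 0.035 under those same settings. Eif2ak2 after MK801 came to -0.035 with block and GC covariate. The causes were not tested. Ligand transcripts, below the count filter, were not tested.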
